A study of Mus musculus with 6 samples.

Results

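The regions described here are the H3K27ac regions of A9 cells that were called with IFN-γ and had no overlapping region with DMSO or with curcuphenol. The members were chosen by the 3 deposited lists of called regions: overlapping regions of the lists (1 bp or more) were merged, and merged regions made of the IFN-γ list alone were kept. There were 11298 such regions of 70818 merged regions, 16.0% of them, and they are 20.3% (95% exact interval 20.0 to 20.6) of the 55622 regions called with IFN-γ. All 11298 are single called regions. Being called with IFN-γ alone is therefore what selected them and is not a result.

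A9 cells are metastatic clones derived from TC1, mouse lung cells transformed with human papillomavirus E6 and E7 and an activated H-ras, and they express little MHC-I and antigen processing machinery (APM). They were cultured for 48 h with 1% DMSO (the vehicle), with 0.00167 μmol curcuphenol or with 5.8e-06 nmol IFN-γ, both of which were dissolved in DMSO, and 130000 live cells were taken per treatment. All cells came from the 1 cell line. For each treatment, DNA was sequenced after capture with the H3K27ac antibody (1 library) and before it (1 input library). The deposited lists hold positions only, so the read depth is not known, the height of a region is not given, and the width of a region in bp is the only measure of its size. Without replicate libraries the treatments could not be tested against each other, and the intervals given are exact Clopper-Pearson 95% intervals that cover counting error only. The IFN-γ list was the longest (55622 regions, 81.1 Mb, against 47899 regions with DMSO and 48763 with curcuphenol), and a region of lower signal can be missed in a shorter list, so that a gain of acetylation and a difference in what was detected cannot be told apart.

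IFN-γ signals through a receptor with the kinases JAK1 and JAK2. Factors that this signalling activates bind gamma-activated sites (GAS), and factors made next, such as IRF1, bind interferon-stimulated response elements (ISRE), which hold a pair of GAAA cores with a fixed spacer. H3K27ac marks active promoters and enhancers, and interferon is known to add it at genes for guanylate-binding proteins, for immunity-related GTPases, for MHC and for the APM. Markers of broad cell types were read on the DMSO list, and they cannot tell A9 from another line such as TC1. The DMSO list held a region at the promoter of 14 of 14 housekeeping genes, 11 of 14 mesenchymal genes (among them Vim, Fn1 and Zeb1), 1 of 12 epithelial genes (Krt8), 1 of 12 leukocyte genes (Cd14) and 0 of 10 endothelial genes.

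The sequences below are shown because they hold, near the centre of a region called with IFN-γ alone, the letters of the GAS (TTCNNNGAA) within the body or at the promoter of a gene of the interferon lists. Capitals mark the match, and all 3 are read on the forward strand of mm10 (GRCm38.p6, RefSeq) over 300 bp at the centre of the region. The Ptpn11 window is chr5:121174263-121174562, in an intron of the gene for the phosphatase SHP2, in a region of 2398 bp. The Gbp3 window is chr3:142570772-142571071, in an exon, in a region of 1532 bp. The Ccl12 window is chr11:82101452-82101751, at the promoter of this monocyte chemokine gene, in a region of 1210 bp.
Ptpn11: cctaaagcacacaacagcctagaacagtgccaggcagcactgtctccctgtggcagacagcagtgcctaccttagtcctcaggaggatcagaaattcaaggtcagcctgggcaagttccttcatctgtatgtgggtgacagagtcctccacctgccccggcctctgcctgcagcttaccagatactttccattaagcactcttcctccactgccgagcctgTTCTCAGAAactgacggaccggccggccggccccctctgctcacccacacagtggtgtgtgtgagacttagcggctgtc
Gbp3: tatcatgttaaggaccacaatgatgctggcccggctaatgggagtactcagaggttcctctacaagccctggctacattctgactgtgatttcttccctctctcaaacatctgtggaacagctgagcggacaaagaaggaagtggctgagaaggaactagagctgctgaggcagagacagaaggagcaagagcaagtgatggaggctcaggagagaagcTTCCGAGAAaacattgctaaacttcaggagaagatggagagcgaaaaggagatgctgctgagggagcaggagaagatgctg
Ccl12: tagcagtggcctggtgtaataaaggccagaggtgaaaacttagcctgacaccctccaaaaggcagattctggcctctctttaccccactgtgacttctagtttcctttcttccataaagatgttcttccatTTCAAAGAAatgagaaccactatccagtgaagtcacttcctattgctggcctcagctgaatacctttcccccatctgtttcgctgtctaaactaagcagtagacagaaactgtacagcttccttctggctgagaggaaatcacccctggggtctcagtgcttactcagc

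ISRE-like letters (GAAANNGAAA on either strand) were also present near the centre of such regions, and 3 groups of them are shown because the results on motifs turn on them. In the first group are all 4 regions of 1000 bp or more with these letters that were nearest to an interferon-list gene, with Batf2, which was chosen after its values were seen. Each line gives 15 bases, the match in capitals and 15 bases, on the strand that reads GAAA. Distances to a start are those of the centre of the region that holds the site. The Batf2 site is chr19:6164350-6164389 (plus strand, promoter). The H2-Aa site is chr17:34296544-34296583 (minus strand, 8754 bp upstream). The Ciita site is chr16:10465604-10465643 (minus strand, 14355 bp upstream). The Usp18 site is chr6:121238660-121238699 (plus strand, 7164 bp upstream). The Socs3 site is chr11:117946206-117946245 (minus strand, 23202 bp downstream of the start). All 10 capital bases of the Ciita and Usp18 sites are soft-masked as repeats in the RefSeq genome, and none of those of Batf2, H2-Aa and Socs3 are.
Batf2: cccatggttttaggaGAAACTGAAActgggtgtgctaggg
H2-Aa: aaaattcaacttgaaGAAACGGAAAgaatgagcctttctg
Ciita: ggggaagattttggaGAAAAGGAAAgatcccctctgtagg
Usp18: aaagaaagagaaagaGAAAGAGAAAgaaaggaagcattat
Socs3: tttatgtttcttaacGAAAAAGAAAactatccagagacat

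In the second group GAAAGT stands 2 times in a row. These are among the widest such regions, named by the nearest gene, and none of these genes is on an interferon list. The Spata13 site is chr14:60687571-60687612 (minus strand), the Cep162 site chr9:87226594-87226635 (plus strand), the Gm12128 site chr11:37481461-37481502 (minus strand) and the Eda2r site chrX:97680617-97680658 (minus strand). The sites at Cep162, Gm12128 and Eda2r lie in bases that the RefSeq genome soft-masks as repeats, and that at Spata13 does not.
Spata13: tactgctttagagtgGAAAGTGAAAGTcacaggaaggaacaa
Cep162: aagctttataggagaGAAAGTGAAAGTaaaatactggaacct
Gm12128: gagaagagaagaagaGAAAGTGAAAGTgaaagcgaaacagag
Eda2r: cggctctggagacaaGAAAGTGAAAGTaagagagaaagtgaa

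In the third group GAAAGA stands at least 3 times in a row, and the ISRE-like letters recur through the whole stretch. The Nkx6-2 site is chr7:139529508-139529555 (minus strand), the Micalcl site chr7:112348518-112348565 (plus strand) and the Hectd4 site chr5:121227531-121227578 (minus strand). All 18 capital bases of each are soft-masked. The central 300 bp held 9, 13 and 15 ISRE-like matches, in that order.
Nkx6-2: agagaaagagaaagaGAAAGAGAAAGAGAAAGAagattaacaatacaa
Micalcl: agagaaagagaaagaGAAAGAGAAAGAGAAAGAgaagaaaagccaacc
Hectd4: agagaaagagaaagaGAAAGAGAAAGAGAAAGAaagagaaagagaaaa

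The regions called with IFN-γ alone were mostly narrow, intronic or intergenic, and close to regions of the other lists. Their median width was 450 bp (quartiles 337 and 686 bp, range 267 to 6660 bp), against 595 bp for 12915 regions called with curcuphenol alone, 384 bp for 6976 called with DMSO alone, and 2242 bp for the 27636 merged regions with all 3 treatments. Together they covered 6.74 Mb. By the position of the centre, 53.1% (52.1 to 54.0) lay in introns, 38.7% (37.8 to 39.6) between genes, 2.99% in exons, 1.99% at transcription termination sites and 1.72% (1.49 to 1.97) at promoters, from 1000 bp before to 100 bp after a transcription start site (TSS). The promoter share was 1.25% (1.06 to 1.45) with curcuphenol alone and 2.42% (2.07 to 2.81) with DMSO alone. The median distance from the centre to the nearest TSS was 23044 bp with IFN-γ alone, 28473 bp with curcuphenol alone and 38530 bp with DMSO alone. The median GC content of the central 300 bp was 47.7% with IFN-γ alone, 45.7% with curcuphenol alone and 39.7% with DMSO alone.

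Among the autosomes the share of merged regions called with IFN-γ alone ran from 14.4% (13.0 to 15.9) to 18.2% (16.8 to 19.7), the latter on chromosome 17. On chromosome 19 it was 17.8% (16.0 to 19.6). It was 13.0% (11.6 to 14.5) on chromosome X.

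The distance from a region called with IFN-γ alone to the nearest DMSO or curcuphenol region had a median of 3120 bp (quartiles 754 and 11010 bp). It was 500 bp or less for 2145 regions (19.0%, 18.3 to 19.7) and 10000 bp or less for 8286 regions (73.3%, 72.5 to 74.2). For regions called with curcuphenol alone, the median distance to the other lists was 11362 bp and 47.0% (46.1 to 47.8) lay within 10000 bp. For regions called with DMSO alone the median was 3470 bp, and 67.0% (65.9 to 68.1) lay within 10000 bp. Within 500 bp lay 26.9% (25.9 to 28.0) of those called with DMSO alone, above the 19.0% of the members. At the edge of the rule, 149 members had a gap of under 50 bp to a DMSO or curcuphenol region (median width 425 bp), and 184 IFN-γ regions were left out for a shared stretch of under 50 bp (median width 396 bp). At the other end, 566 members (5.01%, 4.62 to 5.43) lay more than 50000 bp from any DMSO or curcuphenol region.

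**Figure D1:**
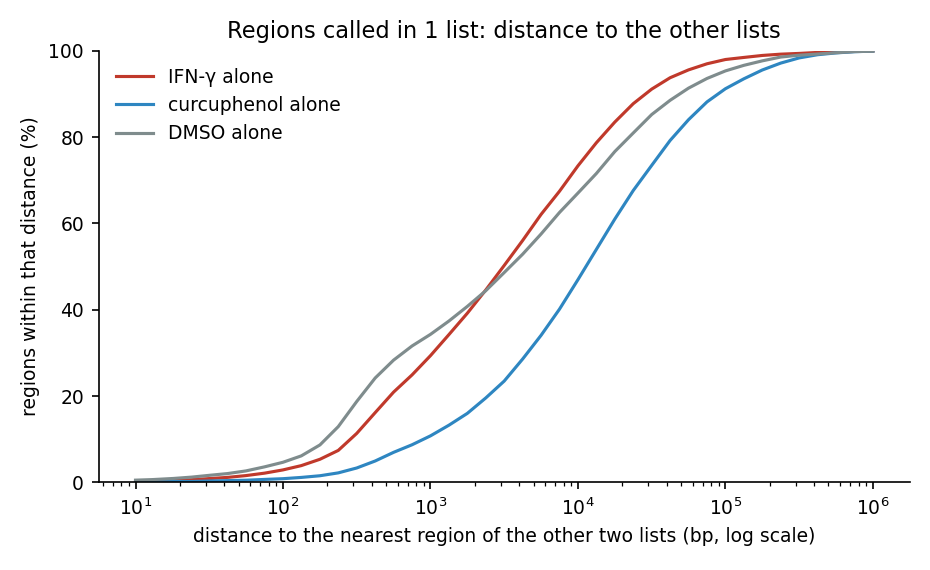
Share of regions called in 1 list (y, %) that lie within a given distance (x, bp, log scale) of the nearest region of the other lists, for IFN-γ alone (11298 regions), curcuphenol alone (12915) and DMSO alone (6976). The IFN-γ line is at 73.3% at 10000 bp, above the 67.0% of DMSO alone and the 47.0% of curcuphenol alone at the same distance.

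The regions called with IFN-γ alone were then set against each other. Another such region stood within 10 kb of 4283 of them (37.9%, 37.0 to 38.8), against 31.0% (30.2 to 31.8) with curcuphenol alone and 30.0% (28.9 to 31.0) with DMSO alone, while 49.9% (49.3 to 50.5) of the merged regions with all 3 treatments had another of their own class so near. With regions of the lists within 500 bp of each other counted as 1, the 37.9% was 22.9%. With lists of equal length (widest first) it was 30.8%. Neither alternative was counted for the other classes, and the number of regions differs between the classes, so that these shares are not matched. Chained over gaps of 10 kb or less, 65 clusters held 5 or more members, 387 regions in all (3.43% of members, 3.10 to 3.78). The same chains took 104 of the regions called with curcuphenol alone (20 clusters, 0.81%, 0.66 to 0.97). Of those called with DMSO alone they took 129 (21 clusters, 1.85%, 1.55 to 2.19). The cluster with the most regions in each class held 16 of those called with IFN-γ alone, 16 of those with DMSO alone and 7 of those with curcuphenol alone.

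Of the 10 clusters with the most members (ties ordered by summed width), 4 lay over genes for guanylate-binding proteins, the interferon-induced GTPases that attack the vacuoles of intracellular pathogens. The cluster with the most members held 16 regions over Gbp7 and Gbp3 (chr3:142533906-142575444). Over its 41.5 kb the IFN-γ list covered 20014 bp, of which 12813 bp were called with IFN-γ alone, while the DMSO list covered 3907 bp and the curcuphenol list 2414 bp. Its members were between 316 and 1811 bp wide and stood on both sides of the regions shared with the other lists. A second cluster on the same chromosome (chr3:142625410-142646937) held 9 regions over Gbp2, with no DMSO region and 1 curcuphenol region. The nearest TSS to these 9 regions is that of the microRNA gene Mir6381, so that they do not count for Gbp2 in the list below.

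On chromosome 5, 9 regions (8098 bp) lay over Gbp9 and Gbp4 (chr5:105108139-105136021), where DMSO regions covered 2407 bp and a curcuphenol region 1169 bp. A further 7 regions (7500 bp) lay over Gbp6 and upstream of Gbp10 (chr5:105261954-105291924), in a span of 30.0 kb with no DMSO region and 2 curcuphenol regions that covered 1930 bp.

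Grb2, an adaptor of receptor tyrosine kinases, had 7 regions (5274 bp) in 21.1 kb, with none from the other lists. Cd47, which encodes the signal that inhibits phagocytosis by macrophages, shared a cluster of 9 regions (4986 bp) with the non-coding gene Gm19723.

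A further 3 clusters lay at genes that are on none of the lists, like Grb2. Thbs2, which encodes the matrix protein thrombospondin 2, had 10 members in 31.4 kb, where DMSO regions already covered 8317 bp. Ahr, the aryl hydrocarbon receptor, had 8 members (6130 bp) beside 2830 bp of DMSO regions. Frmd4a, a scaffold protein of cell polarity, had 8 members (3371 bp) beside 6660 bp of DMSO regions.

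**Figure D2:**
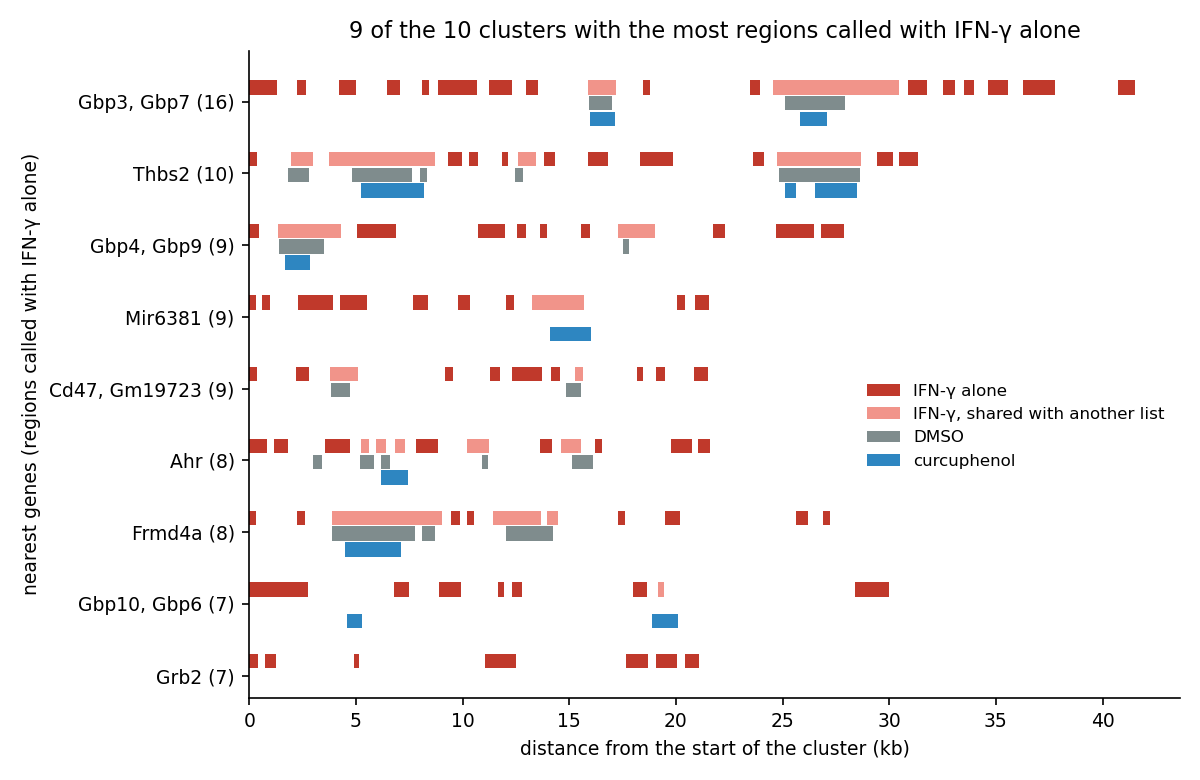
Called regions in 9 of the 10 clusters with the most regions called with IFN-γ alone, drawn to scale from the start of each cluster (x, kb), with IFN-γ regions on the upper row of each cluster (dark red alone, light red shared), DMSO in grey and curcuphenol in blue. The cluster at Grb2 holds no grey or blue box, and the one at Gbp3 and Gbp7 holds 16 dark red boxes.

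By number of members per gene, genes with many regions of every kind led. Frmd4a was nearest to 20 of them, out of 52 merged regions nearest to that gene. Asap1 (an ARF GTPase-activating protein) was nearest to 19 of 66, Tgfbr3 (the TGF-β co-receptor betaglycan) to 17 of 47, Nr2f2 (the nuclear receptor COUP-TFII) to 15 of 34 and Macroh2a3 to 15 of 53. Ext1 and Pdlim5 had 14 each, Efna5 had 13, Thbs2 had 12, and Samd4, Sipa1l1, Ahr, Ppp3ca, Spred2 and Ttc39b had 11 each. None of these 15 genes is on a list of interferon genes. Gbp3 had fewer members (10), but they made up 10 of its 12 merged regions.

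The 15 widest regions lay in different places from the densest clusters. Their distances to a TSS are given from the centre of the region. The widest, 6660 bp (chr15:77594664-77601323), had its centre 1869 bp upstream of the TSS of Apol10b, a member of the apolipoprotein L family, and spans that TSS. The nearest DMSO or curcuphenol region was 126043 bp away. The next, 5700 bp (chr16:10450016-10455715), had the TSS of Tvp23a nearest to it and that of Ciita, the master regulator of MHC class II genes, at 27.2 kb. A region of 5659 bp (chr11:58188979-58194637) had its centre 7748 bp upstream of Igtp, which encodes an immunity-related GTPase. A region of 5391 bp (chr16:10811302-10816692) was nearest to Prm1, a protamine gene, and 28.5 kb from the TSS of Socs1, the inhibitor of JAK signalling.

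Of the other widest regions, that of Ido2 (3353 bp, an intron) lay 36.6 kb from the TSS of Ido1, and that of Batf2 (3290 bp) lay at its promoter. Both Ido genes encode enzymes that degrade tryptophan, and BATF2 is an AP-1 family factor known to be induced by IFN-γ. The rest, from 4931 bp at Tgm2 (transglutaminase 2) to 3222 bp at Palld, were nearest to Tgm2, Enc1, A930005H10Rik, Stk39, Mrvi1, Slc6a6, B3gnt7, Spata13 and Palld, and all were more than 600 kb from the nearest TSS of an interferon-list gene. The region at Palld lay 24 bp from a region of another list, so that it stands at the edge of the rule.

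The nearest gene was then read against 22 lists of genes, 15 of them interferon lists. The TSS nearest to a region's centre was used, and it can lie far from the region or in a neighbouring gene. Of 26180 curated RefSeq genes, 6235 (23.8%) were nearest to 1 or more members, and of the 17648 genes nearest to any merged region 35.3% were. Of 218 distinct genes on the interferon lists 121 were (55.5%), with 284 regions. Genes with many regions are more often counted, and the background of all genes is not matched for this. The counts describe the lists and are no test of IFN-γ. Within 50 kb of the TSS of an interferon-list gene lay 3.62% (3.28 to 3.98) of the members, 0.88% (0.72 to 1.05) of regions called with curcuphenol alone, 0.93% (0.72 to 1.19) of those called with DMSO alone and 1.82% (1.66 to 1.98) of the merged regions with all 3 treatments.

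**Figure D3:**
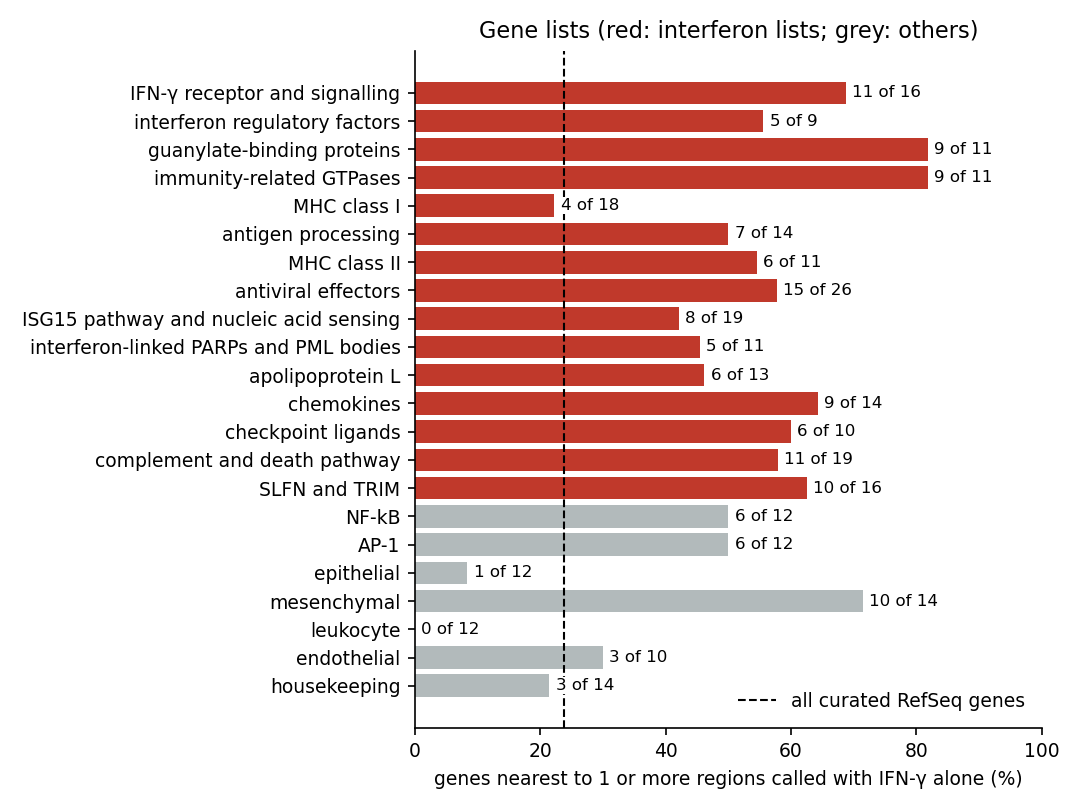
Share of the genes of each list (x, %) that were nearest to 1 or more regions called with IFN-γ alone, with the number of genes beside each bar, red for interferon lists and grey for the others. The dashed line is the 23.8% of all curated RefSeq genes, and the bars of guanylate-binding proteins and immunity-related GTPases (9 of 11 each) are the longest.

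Of the genes of the IFN-γ receptor and its signalling, 11 of 16 were nearest to a member. The receptor chain gene Ifngr2 had 1 narrow region (288 bp) and the kinase gene Jak1 had 2 (860 bp in all). Of the STAT genes, Stat3 had 4 (3243 bp) and Stat2 had 2 (1295 bp). The negative regulators Socs1 (7 regions, 7632 bp), Socs3 (2 regions, 1943 bp) and the phosphatases Ptpn1 (4 regions, 2327 bp) and Ptpn11 (2 regions, 2706 bp) had members as well. The Socs1 regions were not close to the gene, with centres 13569 to 119479 bp from its TSS. Every gene of this list with a member was also nearest to a DMSO or curcuphenol region. Among the interferon regulatory factors, which act downstream, 5 of 9 had members, among them Irf1 (5 regions, 2682 bp), Irf2 (4 regions, 3911 bp) and Irf5 (1 region of 1101 bp at its promoter). The centres of the Irf1 regions lay 13455 to 44210 bp from its TSS.

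Of the effector families, guanylate-binding proteins (9 of 11 genes, 39 regions) and immunity-related GTPases (9 of 11 genes, 20 regions) had the largest shares. Gbp3 (7567 bp), Gbp7 (5246 bp), Gbp6 (5232 bp) and Gbp9 (4680 bp) led the first by summed width, and Igtp (7543 bp), Gm4951 (5406 bp), Irgm2 (4164 bp) and Iigp1 (3162 bp) the second. Some Gbp9 regions had their centres in exons or introns 9216 to 13593 bp upstream of its TSS. They can lie in a neighbouring gene. Members of these families share sequence with each other, and how reads that fit several copies were placed is not given in the sources used here. Antiviral effectors had 15 of 26 genes, led by Samhd1, a dNTP hydrolase that restricts viruses (4 regions, 4202 bp), Ifit3 (2 regions, 2522 bp), Oasl2 (2 regions, 1786 bp), Adar (1 region of 1747 bp) and Mx2 (4 regions, 1746 bp). The Ifit3 regions had their centres upstream of its TSS, in an exon at 10325 bp and at a termination site at 6158 bp, and can also lie in a neighbour. The ISG15 pathway and nucleic acid sensing had 8 of 19, led by Usp18, the protease that removes ISG15 (4 regions, 3117 bp). The PARPs and PML body genes had 5 of 11, led by Parp14 (7 regions, 3751 bp), and the apolipoprotein L genes had 6 of 13. SLFN and TRIM genes had 10 of 16, led by Slfn1 (3 regions, 4512 bp) and Slfn4 (4 regions, 2476 bp).

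Among the genes of antigen presentation, MHC class II, which presents extracellular antigen and is not made by most cells without IFN-γ, had 6 of 11 genes with members: H2-Aa (5 regions, 5356 bp), H2-Ab1 (4 regions, 4100 bp), H2-Eb1 (1 region of 2025 bp), Ciita (1 region of 1908 bp), H2-DMb1 (2 regions, 1225 bp) and H2-DMb2 (1 region of 575 bp). None of these 6 genes was nearest to any DMSO or curcuphenol region, but the H2-DMb2 member lay 1154 bp from such a region. Cd74 and H2-DMa of the same list had no member. Each was nearest to 1 merged region, called with curcuphenol and not with DMSO. Between H2-Ab1 and H2-Eb1 (chr17:34257018-34306274, 49.3 kb) the IFN-γ list held 10 regions, all of them members, and the other lists held 0. The nearest DMSO or curcuphenol region to each of these 10 was 45909 to 93141 bp away. The member centred 8754 bp upstream of H2-Aa and the one centred 14355 bp upstream of Ciita hold the ISRE-like letters printed above, that of Ciita in soft-masked bases. The 6 genes were 6 or 7 under the other definitions of the regions, and 10 when any TSS within 50 kb counted.

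MHC class I had 4 of 18 genes with members (22.2%), near the 23.8% of all genes. They were H2-Q7 (964 bp, at its promoter), H2-T22 (990 bp), H2-M5 (423 bp) and H2-Q10 (340 bp), with 1 region each. The classical genes H2-K1 and H2-D1, B2m (the light chain of MHC class I) and the peptide transporter gene Tap1 were nearest to no member. The merged regions nearest to them (1, 2, 1 and 1, in that order) were all called with DMSO and with curcuphenol, so that by the rule they could not be members. A member counted for Psmb8 had its centre in an intron, 2990 bp upstream of the TSS of Psmb8. It can thus lie in the body of a neighbour such as Tap1, which was not tested. Being nearest to no member therefore does not mean that a gene holds none. The count for class I depended on the definition: it was 9 under reciprocal overlap of 50%, 2 with the minimum width of 500 bp and 10 with any TSS within 50 kb, and 3 or 4 under the others. The H2-Q and H2-T genes are near-identical copies in part, so their regions are uncertain for the same reason as above. Antigen processing had 7 of 14: Nlrc5, the transactivator of MHC class I genes (2 regions, 1645 bp), Pdia3 (2 regions, 1286 bp), the peptide transporter gene Tap2 (1 region of 1273 bp), the immunoproteasome genes Psmb8 (1 region of 892 bp) and Psmb9 (2 regions, 679 bp), Psme1 (1 region of 563 bp) and Erap1 (1 region of 282 bp). The member counted for Tap2 had its centre at a transcription termination site, 3002 bp upstream of the TSS of Tap2.

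Chemokines had 9 of 14 genes with members. Cxcl11 and Cxcl9, which encode ligands of the chemokine receptor CXCR3, had 2 regions each (2168 and 975 bp), and Ccl12 had 1 of 1210 bp at its promoter. Neither Cxcl9 nor Ccl12 was nearest to a DMSO or curcuphenol region. Checkpoint ligands had 6 of 10. Ido1 had 3 regions (3972 bp) and none from the other lists, Cd47 had 5 (3227 bp), Cd80 had 4 (3042 bp) and Cd274, which encodes PD-L1, had 4 (2890 bp). The widest of the Cd274 regions, 1611 bp, had its centre in an intron 1923 bp from the TSS. Genes of complement and cell death had 11 of 19, led by Fas (4 regions, 3983 bp), Tnfsf10, which encodes TRAIL (6 regions, 3405 bp), Casp12 (4 regions, 2207 bp) and the complement gene Cfb (1 region of 1245 bp at its promoter).

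Lists other than the interferon lists had members too. Mesenchymal genes, many of them with DMSO regions at the promoter, had 10 of 14, led by Twist2 (8 regions, 3816 bp) and Twist1 (4 regions, 2507 bp). NF-κB genes and AP-1 genes had 6 of 12 each, led by Nfkbiz (7 regions, 3855 bp) and Batf2 (3 regions, 4454 bp). Endothelial genes had 3 of 10, housekeeping genes 3 of 14, epithelial genes 1 of 12 and leukocyte genes 0 of 12. Shares above that of all genes were thus also found outside the interferon lists. The AP-1 list among these holds Batf2, named above as known to be induced by IFN-γ.

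At promoters, 191 of 26180 curated genes (0.73%) had a member. The list genes among them were 11 of 218 interferon-list genes (Ccl7, Ccl12, H2-Aa, H2-DMb1, H2-Eb1, H2-Q7, Cfb, Casp1, Ido1, Ifit1bl1 and Irf5) and the genes Batf2, Batf3 and Snai1 of other lists. Their widths ran from 285 bp at Snai1 to 3290 bp at Batf2. The member at the promoter of H2-Aa was 76011 bp and that at H2-Eb1 93141 bp from the nearest DMSO or curcuphenol region, while those at Snai1 and Ccl7 were 384 and 546 bp away. Of the 6235 genes with a member, 544 (8.72%, 8.04 to 9.45) were nearest to no other merged region. By summed width, Prm1 (7115 bp), Apol10b (6660 bp), Nuak2 (5413 bp), H2-Aa, Batf2, Ubd (5 regions, 4269 bp) and H2-Ab1 led these, and of the interferon-list genes 18 belonged to them. Ubd encodes the ubiquitin-like protein FAT10. Nuak2 and Ubd are on no list and were chosen after their values were seen.

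Motifs were counted in the central 300 bp of each region, on both strands, with overlapping matches and overlap between motifs allowed. The ISRE-like motif (GAAANNGAAA) was in 7.43% (6.96 to 7.93) of the members, in 3.83% (3.51 to 4.18) of regions called with curcuphenol alone, in 6.87% (6.28 to 7.48) of those called with DMSO alone, in 8.23% (7.61 to 8.88) of the 7343 called with DMSO and IFN-γ but not with curcuphenol, and in 3.44% (3.25 to 3.65) of 32851 RefSeq promoters of the same length. The share of the regions called with DMSO and IFN-γ was the highest of the 7 classes of merged regions, and it was 4.13% to 4.56% in the 3 classes not yet named. The GAS-like motif (TTCNNNGAA) was in 9.02% (8.50 to 9.56) of the members, 9.54% (9.04 to 10.1) with curcuphenol alone, 12.03% (11.3 to 12.8) with DMSO alone and 8.30% of the promoters. The narrower GAS letters TTCCNGGAA were in 1.02% (0.84 to 1.22) of the members and 1.03% (0.86 to 1.22) with curcuphenol alone. The AP-1 motif (TGANTCA), bound by dimers of FOS and JUN proteins, was in 10.02% (9.47 to 10.6) of the members, the lowest of the 7 classes of merged regions, against 17.7% (17.02 to 18.3) with curcuphenol alone, 14.3% (13.5 to 15.2) with DMSO alone and 7.81% of the promoters. At 1000 bp or more it was in 15.1% (13.3 to 17.1) of the members, 30.2% (28.7 to 31.8) with curcuphenol alone, 32.9% (29.1 to 36.8) with DMSO alone and 24.01% (22.7 to 25.3) with DMSO and IFN-γ. Under 500 bp the shares were 8.09% (7.44 to 8.78), 8.97% (8.19 to 9.79) and 10.5% (9.65 to 11.4). The TEAD motif (GGAATG) was in 16.2% and the NF-κB motif (GGGANTTCC) in 1.33% of the members, against 16.1% and 1.13% with curcuphenol alone and 14.7% and 1.68% of the promoters.

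The ISRE-like share differed with the width of the region, a division made after the values were seen. Among members under 500 bp it was 3.49% (3.05 to 3.96), near the share of promoters. It was 6.04% (5.11 to 7.09) from 500 to under 750 bp, 12.3% (10.4 to 14.4) from 750 to under 1000 bp, 20.3% (17.7 to 23.2) from 1000 to under 1500 bp and 34.9% (29.8 to 40.3) from 1500 to under 2000 bp. It was 29.9% (22.8 to 37.8) from 2000 to under 3000 bp, and the 24 members of 3000 bp or more gave 12.5% with a wide interval (2.66 to 32.4). In all, 341 of 1376 members of 1000 bp or more (24.8%, 22.5 to 27.1) held the motif. When an overlap counted only if reciprocal at 50%, the share was 12.8% (670 of 5229). The share was 3.58% (2.99 to 4.25) among regions of this width called with curcuphenol alone and 6.71% (4.84 to 9.03) among those called with DMSO alone. In the regions called with DMSO and IFN-γ it was 10.4% (9.52 to 11.4) at this width and 3.49% (2.33 to 5.00) under 500 bp, so that the share differed with width in this class too. In the classes of curcuphenol alone and DMSO alone the share at 1000 bp or more was close to that under 500 bp (3.67% and 6.598%). The GAS-like share of the members moved from 8.30% (7.65 to 8.998) under 500 bp to 10.5% (8.96 to 12.3) at 1000 bp or more.

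**Figure D4:**
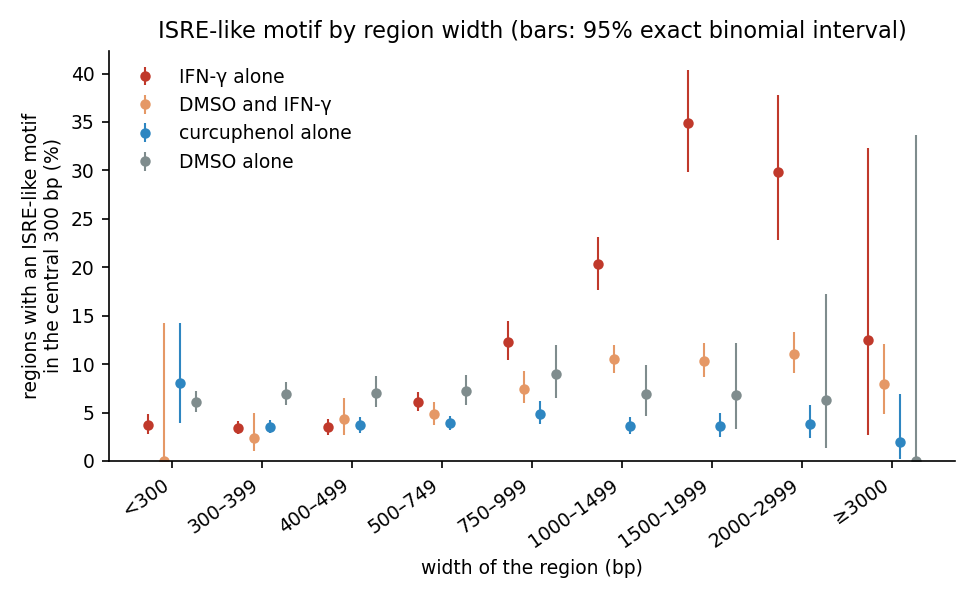
Share of regions with an ISRE-like motif in the central 300 bp (y, %) by the width of the region (x, bp), for regions called with IFN-γ alone, with DMSO and IFN-γ, with curcuphenol alone and with DMSO alone, with exact 95% binomial intervals as bars. The IFN-γ points go from 3.39% at 300 to under 400 bp to 34.9% at 1500 to under 2000 bp, those of DMSO and IFN-γ reach 11.1% at 2000 to under 3000 bp, and those of curcuphenol alone and DMSO alone are at 8.95% or less in every class of width.

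In the wide members the ISRE-like letters stood at the centre. Among 1199 members of 1000 to 2000 bp, a match lay in the 100 bp just before the centre in 10.9% (9.22 to 12.8) and in the 100 bp just after it in 11.4% (9.68 to 13.4), against 1.17% to 2.84% in any 100-bp bin between 400 and 1000 bp from the centre. Among 3038 regions of this width called with DMSO and IFN-γ but not with curcuphenol, the bins beside the centre held it in 4.25% (3.56 to 5.03) and 3.39% (2.78 to 4.10). Among 2832 called with curcuphenol alone the same bins held it in 1.55% (1.13 to 2.08) and 0.99% (0.66 to 1.43), no more than the flanks. The AP-1 motif had the opposite order: the bins beside the centre held it in 5.59% and 5.34% of the members and in 11.8% and 12.7% of the regions called with curcuphenol alone.

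**Figure D5:**
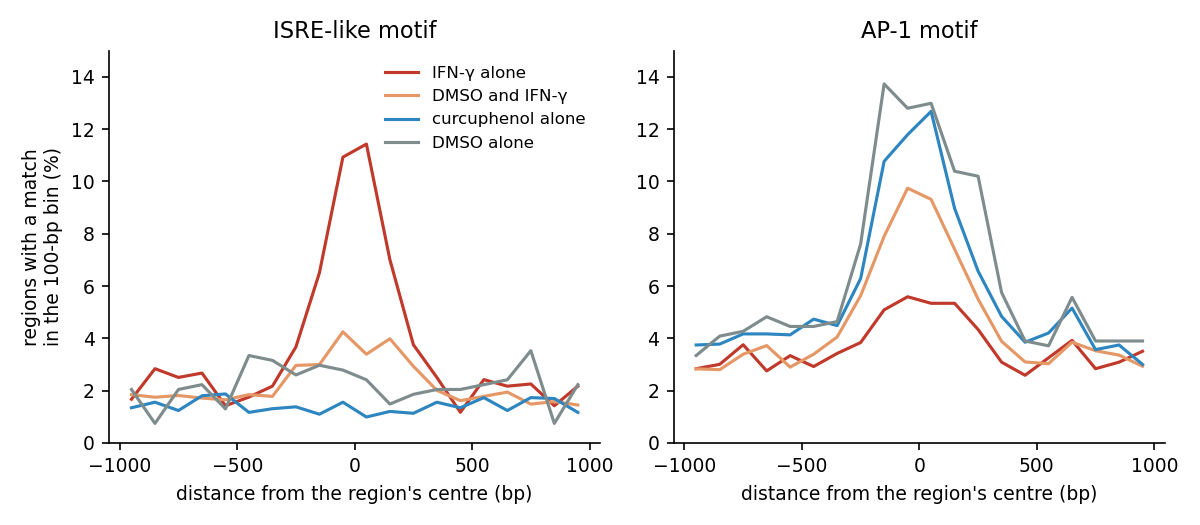
Share of regions of 1000 to 2000 bp with a motif match in each 100-bp bin (y, %) by distance from the centre of the region (x, bp), for the ISRE-like motif (left) and the AP-1 motif (right) in 4 classes of regions. The line of IFN-γ alone is at 11.4% beside the centre on the left, and on the right it is the lowest of the lines there, at 5.34%.

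The count depended on the spacing between the GAAA cores. With 2 bases between them, 24.4% (21.9 to 26.9) of the 1199 members of 1000 to 2000 bp held the letters in the central 300 bp. With 0, 1, 3, 4, 5 or 6 bases between the cores, between 4.42% and 7.92% did. In regions of this width called with curcuphenol alone the spacing of 2 gave 3.60% and the others 2.82% to 5.26%. In those called with DMSO and IFN-γ the spacing of 2 gave 10.4% (9.37 to 11.6) and the others 4.15% to 6.25%, so that this spacing stood above the others there as well. Of the 1199 members, 237 held 1 or 2 matches and 55 held 3 or more (4.59%, 3.47 to 5.93), against 2 of 2832 regions called with curcuphenol alone, 1 of 539 called with DMSO alone, 27 of 3038 called with DMSO and IFN-γ and 14 of 8854 with all 3 treatments. The run of GAAAGA 3 times in a row was in 41 of these members, in 6 of the 3038 regions called with DMSO and IFN-γ, in 2 of 1283 called with curcuphenol and IFN-γ, in 0 of the 8854 with all 3 treatments, in 0 of the 2832 regions called with curcuphenol alone (upper bound of the interval 0.13%) and in 0 of the 539 called with DMSO alone (upper bound 0.682%). With GAAAGT 2 times in a row there were 21 members, 19 of the 3038 regions called with DMSO and IFN-γ, 7 of the 8854 with all 3 treatments, 2 called with DMSO alone and 0 with curcuphenol alone.

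Repeats moved with this result. Of the 292 members of 1000 to 2000 bp with a match, 134 had one in bases that are not soft-masked and in 158 every match included a masked base. Counting matches in unmasked bases only, 150 of the 1376 members of 1000 bp or more (10.9%, 9.30 to 12.7) held the motif, against 1.58% (1.19 to 2.05) with curcuphenol alone, 3.69% (2.33 to 5.53) with DMSO alone and 4.59% (3.97 to 5.27) with DMSO and IFN-γ. The part of repeats in the calls themselves was not tested.

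The share was also higher farther from the regions of the other lists. Among members of 1000 bp or more it was 9.32% (4.75 to 16.1) at under 500 bp from a DMSO or curcuphenol region. It was 14.7% (8.30 to 23.5) from 500 to under 1000 bp and 22.5% (18.8 to 26.7) from 1000 to under 5000 bp. From 5000 to under 20000 bp it was 27.9% (23.8 to 32.2), and at 20000 bp or more 34.3% (28.4 to 40.5). Among members under 500 bp the same steps gave 2.49%, 3.52%, 3.30%, 4.02% and 4.45%. By position, wide members held it in 23.6% (20.5 to 26.9) of introns and in 28.1% (24.5 to 32.0) between genes, and 2 of 25 did at promoters.

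The 341 wide members with the ISRE-like letters were spread over 333 nearest genes, and 4 of the 341 were nearest to an interferon-list gene. Their median distance to the nearest TSS was 23519 bp, and their median distance to a DMSO or curcuphenol region 8105 bp. Members of 1000 bp or more that were nearest to an interferon-list gene held the letters in 4 of 68 cases (5.88%, 1.63 to 14.4), against 337 of 1308 for the others (25.8%, 23.4 to 28.2). For all widths the shares were 4.58% (2.46 to 7.70) of 284 and 7.51% (7.02 to 8.02) of 11014. The GAS-like shares were 10.9% (7.54 to 15.1) and 8.97% (8.44 to 9.52). The members nearest to interferon-list genes were wider, with a median of 536 bp against 448 bp, and lay at promoters in 3.87% against 1.66%. As 68 members of this width were nearest to an interferon-list gene, at most 68 of the 341 could be, whatever their sequence. The split rests on the lists and on the nearest TSS. The wide member at the promoter of Batf2 and the widest one near Ciita, 27.2 kb from its TSS, thus count among the others. These shares were not counted in unmasked bases.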

How the data were processed

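H3K27ac ChIPseq was read from 3 called lists, 1 per treatment, and 6 libraries in all. The authors aligned paired-end reads to mm10 with BWA (0.7.17 in the submitters' processing notes) and called regions with MACS2 (2.1.2, FDR cutoff 0.01) against the input of the same treatment. The deposited values are start and end positions in bp, and the lists give no score, signal or count. A broad domain can be split into several narrow regions, and duplicate and mapping filters are not given in the sources used here.

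Lists were merged at 1 bp of overlap. Positions, nearest TSS and sequences came from RefSeq GRCm38.p6 (26180 genes with curated transcripts; Homer's order of classes, with the termination site from 100 bp before to 1000 bp after). Motifs were searched in the central 300 bp. Of 308 gene names written, 306 were matched. Overlap, distance and motif code was tested on simulated data (Python 3.11, numpy, pandas, scipy and pysam).

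Members and gene lists were chosen with earlier results of these data known. Genes named are those nearest to the 15 widest members, the 15 with most members, those in the 10 largest clusters, list genes with a member at the promoter and up to 6 per list by summed width. Some genes that this rule names are not reported here.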

Additional observations from a re-analysis of the deposited data

How the results depend on the processing

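The limits are those of 1 library per treatment and of lists without signal. No paired analysis was possible because each treatment had 1 library. The number of regions (11298) was 24069 when an overlap counted only if reciprocal at 50%, 7195 when lists were first limited to regions of 500 bp or more, and 7572 to 15886 under the other definitions, within 1.5 times of the main count. Under reciprocal overlap, a gap tolerance of 500 bp, DMSO alone as the comparison, lists of equal length (widest first) and the minimum width of 500 bp, in that order, the median width (450 bp) was 531, 487, 458, 574 and 779 bp, the share with another member within 10 kb (37.9%) was 56.7%, 22.9%, 42.6%, 30.8% and 27.3%, the ISRE-like share (7.43%) was 6.35%, 10.4%, 6.43%, 9.38% and 11.2%, and the wide members' ISRE-like share (24.8%) was 12.8%, 26.2%, 19.1%, 24.8% and 20.04%. The promoter share (1.72%) was 2.51% under reciprocal overlap, 2.81% with the minimum width and 6.05% when promoters were widened to 2000 bp either way. Within 25 kb, 53.1% had another member. With 500 bp searched, the ISRE-like share was 12.9%, the GAS-like share 15.1% (9.02% in 300 bp, and 9.88% with the minimum width) and the wide members' ISRE-like share 32.9%. That last share, whose alternatives were chosen after seeing the data, was 10.9% in unmasked bases, 19.3% for members of 750 bp or more and 32.4% for 1500 bp or more. Interferon-list genes with a member (121) were 100 to 160 under the other definitions of the regions and of the nearest gene, and 185 with any TSS within 50 kb. Of 154 counts per list under an alternative, 122 stayed within 1.5 times of the main count. The causes of these differences were not tested.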
